A study of Mus musculus with 4 samples.

Results

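The 9 genes described here, Sparc, Thbs1, Thbs2, Tnc, Postn, Cyr61, Ctgf, Fn1 and Tgfbi, encode matricellular proteins and fibronectin, and are 9 of the 24328 gene rows in the expression table. They were taken by gene symbol from a list drawn up by protein family and function, and all 9 symbols were present. The 4 libraries held polyadenylated RNA of satellite cells, the muscle stem cells that lie between a fibre and its basement membrane. Mice were perfused with paraformaldehyde, and the fixed cells were sorted from digested skeletal muscle. In the YFP group (2 libraries) the mice carried 1 copy each of Pax7CreERT2 and ROSA26YFP and were 7 months old. In the DEK group (2 libraries) they carried 1 copy each of Pax7CreERT2 and H11DEK-EGFP and were 4.5 months old. Pax7CreERT2 is a tamoxifen-activated Cre under control of the satellite cell gene Pax7. It was present in both groups, whereas reporter, locus, transgene and age all went with the group and cannot be told apart. The sort gate, the promoter of the transgene and the number of animals per library are not given in the sources used here.

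Matricellular proteins are secreted into the extracellular matrix but, unlike collagens, serve mainly to change how cells respond to it. They bind integrins, syndecans, growth factors and collagen, and many are made in bursts during development or after injury. Fibronectin is a fibrillar glycoprotein bound by integrins through its RGD motif. In regenerating muscle it accumulates around satellite cells, and tenascin-C and periostin are likewise known from injured rather than resting muscle. Cyr61 and Ctgf, of the CCN family, are widely used readouts of the transcriptional regulators Yap and Taz acting with Tead factors, and both also respond to serum and mechanical strain.

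Values were taken to be FPKM, fragments scaled to transcript length and library size, and column totals ran from 541183 to 545123. Between 11669 and 12000 genes reached 1 FPKM in each library. Read depth is unknown because no counts were given. Dek, the gene raised by the transgene, was at 512 and 504 FPKM in YFP replicates 1 and 2, against 3196 and 1639.5 FPKM in DEK, in replicate order, so both DEK libraries exceeded both YFP libraries. Satellite cell identity was checked on 9 markers, all of which were detected, with summed levels of 1384 and 1319 FPKM in YFP and 1320 and 1770 FPKM in DEK. Pax7 itself stood at 106 and 93.9 FPKM in YFP and 119 and 184 FPKM in DEK. The ribosomal precursor Rn45s made up 11.8% and 15.7% of the YFP totals and 5.15% and 5.55% of the DEK totals. Over all tested genes the median log2 fold change was 0.05, and -0.07 once Rn45s was removed and the totals rescaled. The share of higher genes among all calls was 58.8%, against 51.6% with TMM factors, 45.4% after quantile normalization and 42.3% without Rn45s. Each of the 9 genes kept its direction under these 3 scalings.

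RefSeq promoter windows (GRCm38.p6) were matched for 6 of the 9 genes: Sparc, Thbs2, Tnc, Postn, Cyr61 (under its newer symbol, Ccn1) and Tgfbi. The 250 bases before the annotated start are shown for the 3 genes on which the results turn, namely Cyr61, with the largest difference between groups, and Sparc and Thbs2, which passed the test. Capitals mark exact matches to CATTCC, the core bound by Tead factors, or to the TATA box TATAAA. The windows are chr3:145649986-145650235 (minus strand) for Cyr61, chr11:55420081-55420330 (minus strand) for Sparc and chr17:14694263-14694512 (minus strand) for Thbs2, each written 5′ to 3′ on the gene's own strand.

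Cyr61: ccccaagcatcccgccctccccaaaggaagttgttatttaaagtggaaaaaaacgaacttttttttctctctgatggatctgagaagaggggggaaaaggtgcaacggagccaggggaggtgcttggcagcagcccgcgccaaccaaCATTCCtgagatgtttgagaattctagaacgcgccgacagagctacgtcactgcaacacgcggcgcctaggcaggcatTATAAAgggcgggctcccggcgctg

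Sparc: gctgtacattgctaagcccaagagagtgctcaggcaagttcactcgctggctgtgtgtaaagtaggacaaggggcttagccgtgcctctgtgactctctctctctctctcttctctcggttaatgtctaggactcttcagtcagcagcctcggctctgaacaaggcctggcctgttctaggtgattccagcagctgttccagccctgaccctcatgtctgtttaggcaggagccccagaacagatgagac

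Thbs2: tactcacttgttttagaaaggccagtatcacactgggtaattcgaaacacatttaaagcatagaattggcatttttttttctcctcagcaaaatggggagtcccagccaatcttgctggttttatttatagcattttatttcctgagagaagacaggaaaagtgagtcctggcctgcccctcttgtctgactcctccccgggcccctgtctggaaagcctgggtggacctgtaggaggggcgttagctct

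In the Cyr61 window the Tead core lay 103 to 98 bases before the start and TATAAA lay 25 to 20 bases before it. Of the 6 genes with a window, Cyr61 alone held CATTCC on either strand, a motif found in 12.6% of all 32851 RefSeq windows of the same length. The 6 genes had 8 windows in all. TATAAA, searched on the given strand, was in the Cyr61 window, both Tnc windows and 1 of the 2 Postn windows, and in 7.59% of all windows. It began 26 bases before the start in Postn, but 126 and 205 bases before it in the Tnc windows. The AP-1 motif TGANTCA and the CArG box, the site of serum response factor, were searched on both strands. Neither was in any window of these 6 genes, and they were in 6.75% and 1.47% of all windows. The letters of a motif are a description and do not show that a factor bound there.

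The genes fell into an abundant and a scarce class. Sparc, Ctgf, Thbs2 and Cyr61 were above 20 FPKM in every library, and the other 5 stayed under 10 FPKM in every library. In both YFP libraries the order was Sparc, Ctgf, Thbs2, Cyr61, with no overlap between neighbours. Below them Thbs1, Tgfbi and Fn1 overlapped in YFP, as did Tnc and Postn, and the range of Thbs1 also overlapped those of Tnc and Postn. In DEK the ranges of Cyr61 and Sparc overlapped, Thbs2 and Ctgf followed without overlap, and Fn1 stood above Thbs1, Tgfbi, Postn and Tnc. Among all genes of a library, Sparc ranked 92 and 100 in YFP and 437 and 345 in DEK, while Cyr61 ranked 2124 and 2836 in YFP and 18 and 354 in DEK. The 9 genes summed to 798 and 696 FPKM in YFP and 2422 and 685 FPKM in DEK. Without Cyr61 the sums were 755 and 666 FPKM in YFP and 417 and 461 FPKM in DEK.

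**Figure D1:**
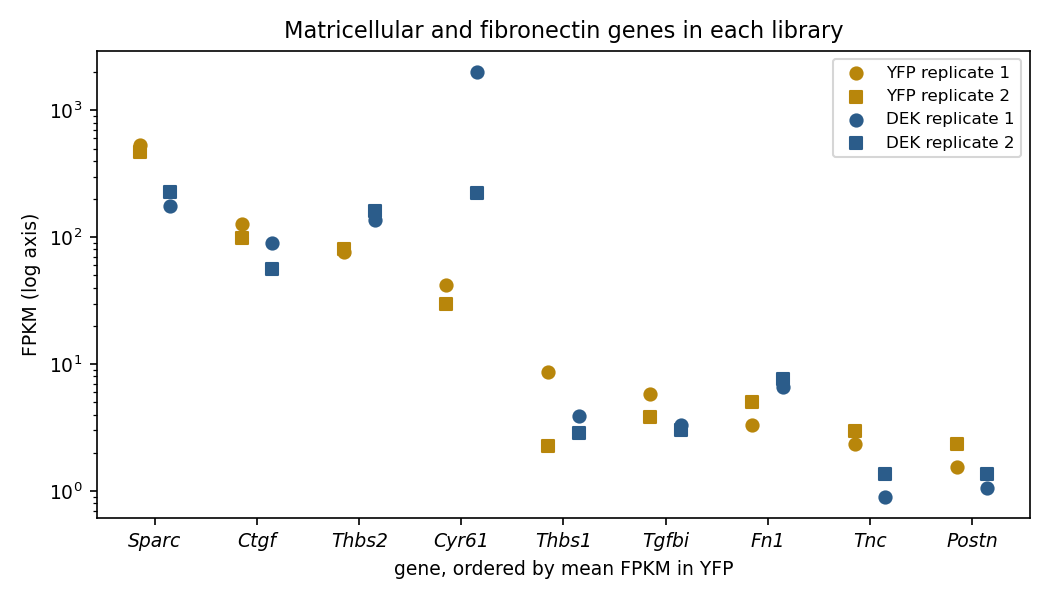
FPKM of the 9 genes (horizontal axis, ordered by their mean in YFP) in each library, on a log vertical axis; colours stand for groups and symbols for replicates. Sparc was lower and Thbs2 and Cyr61 were higher in both DEK libraries, and Cyr61 differed 8.98-fold between the DEK libraries.

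DEK was compared with YFP by limma on log2(FPKM + 1) across the 12179 genes that reached 1 FPKM in 2 or more libraries, with adjustment over all of them. All 9 genes passed this filter. At an adjusted p under 0.05, Thbs2 rose and Sparc fell, so 2 of 9 were called, against 7.78% of all tested genes (4.57% higher and 3.21% lower). At an unadjusted p under 0.05 there were 3 higher (Cyr61, Thbs2, Fn1) and 3 lower (Sparc, Tnc, Ctgf), against 29.1% of all tested genes. Both DEK values lay on one side of both YFP values for 8 genes, 3 higher and 5 lower, and for 60.9% of all tested genes. The median log2 fold change was -0.41 over the 9 genes and 0.05 over all tested genes. With 2 libraries against 2, an exact permutation test of a single gene cannot go below p = 0.333. Nothing in the labels ties a replicate to its own animal, and p-values then reflect only how far these libraries differ, which may be technical.

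**Figure D2:**
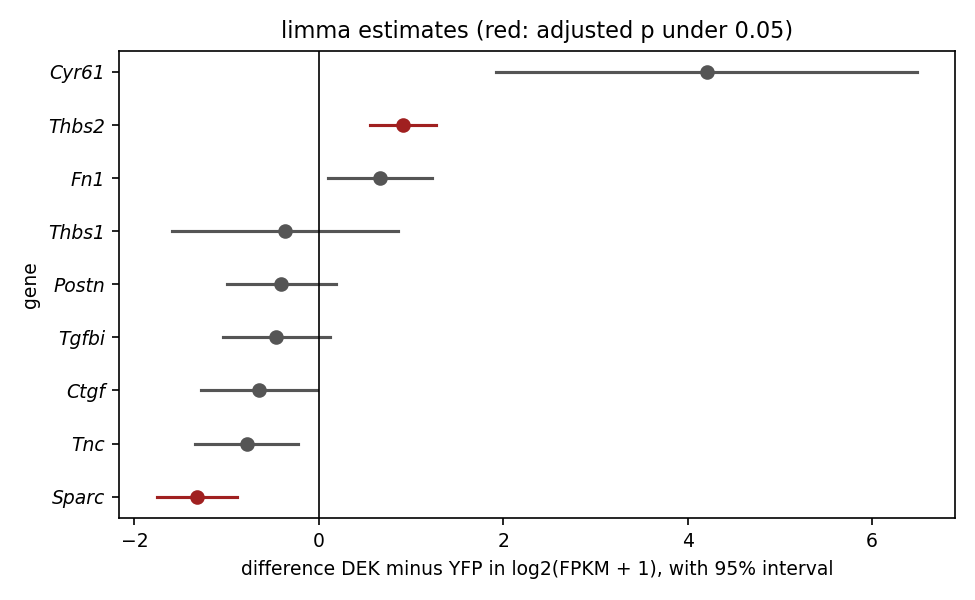
limma difference between DEK and YFP (horizontal axis, log2(FPKM + 1) units) for each gene, with its 95% interval; red marks an adjusted p under 0.05. The intervals of Thbs1, Postn and Tgfbi span 0, and that of Cyr61 is the widest, from 1.92 to 6.48.

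Sparc, the collagen-binding glycoprotein also called osteonectin, was the most abundant of the 9 genes in YFP and the only one called lower. It was at 529 and 471 FPKM in YFP replicates 1 and 2, against 175 and 228 FPKM in DEK, in replicate order. Both DEK libraries were below both YFP libraries, and the nearest pair of values still differed 2.07-fold. The log2 fold change was -1.32 (SE 0.18, 95% interval -1.75 to -0.89, limma adjusted p = 0.0160). In bulk RNA, fewer cells of a type that makes Sparc and less Sparc RNA per cell cannot be told apart. The call was lost without YFP replicate 1 (limma adjusted p = 0.104), YFP replicate 2 (0.115) and DEK replicate 1 (0.0969), and held without DEK replicate 2 (0.0472). With genes filtered on the 3 libraries that remained it also held without DEK replicate 1 (0.0165). The log2 fold change stayed between -1.51 and -1.13 in all of these fits.

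Relatives of Sparc moved in both directions. Its family is defined by a calcium-binding extracellular domain and includes Sparcl1, Smoc1, Smoc2, the testicans Spock1 to Spock3 and Fstl1. Of 8 family genes, Sparc included, 7 were tested. Limma called 1 higher, Smoc2, and 3 lower, Sparc itself, Spock1 and Smoc1, against 4.57% and 3.21% of all tested genes. Spock1, a secreted proteoglycan, was at 14.1 and 10.9 FPKM in YFP and 2.29 and 2.26 FPKM in DEK (log2 fold change -2.03, SE 0.20, limma adjusted p = 0.00745). Smoc1, chosen after its values were seen, fell as well, from 10.7 and 12.2 FPKM to 5.96 and 5.02 FPKM (limma adjusted p = 0.0396). Smoc2 rose, from 0.222 FPKM in YFP replicate 1 and a listed 0 in YFP replicate 2 to 10.5 and 16.1 FPKM in DEK (limma adjusted p = 0.00356). It passed the low filter only through DEK, so it could only be called higher. The family as a whole summed to 967 and 849 FPKM in YFP and 497 and 602 FPKM in DEK, most of it Sparc and Fstl1.

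Thrombospondins are multimeric calcium-binding glycoproteins. Thbs1 and Thbs2 are the pair of trimeric members that bind the receptors Cd36 and Cd47 and restrain blood vessel growth, and Thbs1 also activates latent TGF-beta. Thbs2 was at 76.1 and 79.96 FPKM in YFP, against 136 and 161 FPKM in DEK. The DEK values were above the YFP values and the YFP values were close together. Its log2 fold change was 0.91 (SE 0.15, 95% interval 0.56 to 1.27, limma adjusted p = 0.0246). Leaving out any 1 library on the same genes ended the call, with limma adjusted p = 0.119 and 0.149 without YFP replicates 1 and 2 in turn and 0.0969 and 0.0875 without the DEK replicates in turn, while the log2 fold change ran from 0.79 to 1.04. With genes filtered on the 3 libraries that remained, the call held without DEK replicate 1 (0.0256) or DEK replicate 2 (0.0315) and was lost without either YFP library.

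Thbs1 was far scarcer, at 8.72 and 2.27 FPKM in YFP and 3.92 and 2.88 FPKM in DEK. Both DEK values fell between the YFP values, and Thbs1 was the only one of the 9 genes whose groups overlapped. Its log2 fold change was -0.37 (95% interval -1.59 to 0.85, limma adjusted p = 0.663). The sign depended on YFP replicate 1: the log2 fold change was 0.42 without it and -1.15 without YFP replicate 2. Thbs2 exceeded Thbs1 8.74-fold and 35.2-fold in YFP and 34.7-fold and 55.9-fold in DEK.

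Of the 5 thrombospondin genes, all tested, limma called 3 higher and 0 lower in DEK (against 4.57% and 3.21% of all tested genes). Besides Thbs2 these were the pentameric members Thbs4 and Comp, both known from tendon. Thbs4 went from 2.28 and 0.704 FPKM to 23.1 and 22.3 FPKM (log2 fold change 3.32, SE 0.32, limma adjusted p = 0.00684). Only 1 YFP library reached 1 FPKM for Thbs4, so without its DEK values it would not have been tested. Comp, chosen after its values were seen, went from 0.675 and 0.638 FPKM to 3.06 and 4.27 FPKM (limma adjusted p = 0.0224). Comp was under 1 FPKM in both YFP libraries and passed the low filter only through DEK, so it could only be called higher. Thbs4 and Comp also belong to the 7 tenocyte markers. The 5 other markers summed to 6.56 and 5.40 FPKM in YFP and 31.6 and 37.0 FPKM in DEK, with 0 of them listed at 0 in DEK. Of the 4 tested among these 5, limma called Fmod, Kera and Tnmd higher, and Kera and Tnmd passed the filter only through DEK. Fmod reached 1 FPKM in only 1 YFP library, so it too needed DEK to pass. Of all 6 tested tenocyte markers 83.3% were called, against 7.78% of all tested genes. Mkx, a tendon transcription factor, was not called, at 3.64 and 4.41 FPKM in YFP and 3.12 and 4.07 FPKM in DEK (log2 fold change -0.13). Scx, another, was at 0.446 and 0.166 FPKM in YFP and 0.437 and 0.291 FPKM in DEK. The part of tenocyte RNA in the thrombospondin values was not tested.

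The CCN proteins Cyr61 and Ctgf share a modular structure and bind integrins, but here they went in different directions. Cyr61, known as an immediate early gene, was at 42.2 and 29.6 FPKM in YFP, against 2005 and 223 FPKM in DEK, in replicate order. Both DEK libraries were above both YFP libraries, the nearest pair by 5.29-fold, but the DEK libraries differed 8.98-fold from each other. The log2 fold change was 4.20 (SE 0.93, 95% interval 1.92 to 6.48), the 14th highest of all tested genes, and it narrowly missed the threshold (limma adjusted p = 0.0507). It was called at a 5 FPKM filter (0.0433), and without DEK replicate 2 (0.0350, log2 fold change 5.78). Without DEK replicate 1 the log2 fold change was 2.62 (adjusted p = 0.0909, or 0.00545 with genes filtered on the 3 libraries that remained). The adjusted p was 0.154 without YFP replicate 1, 0.236 without YFP replicate 2, 0.156 with robust estimation and 0.149 with no low filter. Cyr61 was called in 5 of 18 refits and under 0 of the 3 scalings.

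Ctgf, known for promoting matrix production in fibrosis, was at 128 and 98.8 FPKM in YFP and 90.8 and 56.2 FPKM in DEK. The groups did not overlap, but DEK replicate 1 lay close below YFP replicate 2. The log2 fold change was -0.65 (SE 0.26, 95% interval -1.28 to -0.02, limma adjusted p = 0.163). It was -0.31 without DEK replicate 2 and -0.99 without DEK replicate 1. Ctgf exceeded Cyr61 3.04-fold and 3.33-fold in the YFP libraries, and Cyr61 exceeded Ctgf 22.1-fold and 3.98-fold in DEK replicates 1 and 2. Of the other CCN genes Wisp1 was between 24.3 and 38.0 FPKM, Wisp2 between 3.19 and 5.57 FPKM, and Nov and Wisp3 were under the filter. Limma called 0 of the 4 tested CCN genes, with Cyr61 and Ctgf at an unadjusted p under 0.05; these relatives were chosen after their values were seen.

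Immediate early and dissociation response genes, which switch on within minutes of stress, moved with Cyr61. Limma called 9 of 21 higher and 1, Klf6, lower, which is 47.6% called, against 7.78% of all tested genes. The median log2 fold change was 3.08. Taken library by library, the median gene of this list stood 4.50 log2 units above the YFP mean in DEK replicate 1 and 1.96 above it in DEK replicate 2. Cyr61 stood 5.78 and 2.62 above it. The heat shock gene Hspa1a was at 4.91 and 3.41 FPKM in YFP and 3419 and 654 FPKM in DEK. The nuclear receptor Nr4a1 went from 2.50 and 2.26 FPKM to 160 and 71.6 FPKM, and the AP-1 subunit Fosb from 4.25 and 2.57 FPKM to 87.5 and 52.7 FPKM. DEK replicate 1 was thus the higher DEK library for each of these 3 genes as for Cyr61. Klf2 of the same list, chosen after its values were seen, was lower in DEK replicate 1 (1.12 FPKM) than in DEK replicate 2 (2.04 FPKM). Whether this response accounts for the Cyr61 difference was not tested.

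**Figure D3:**
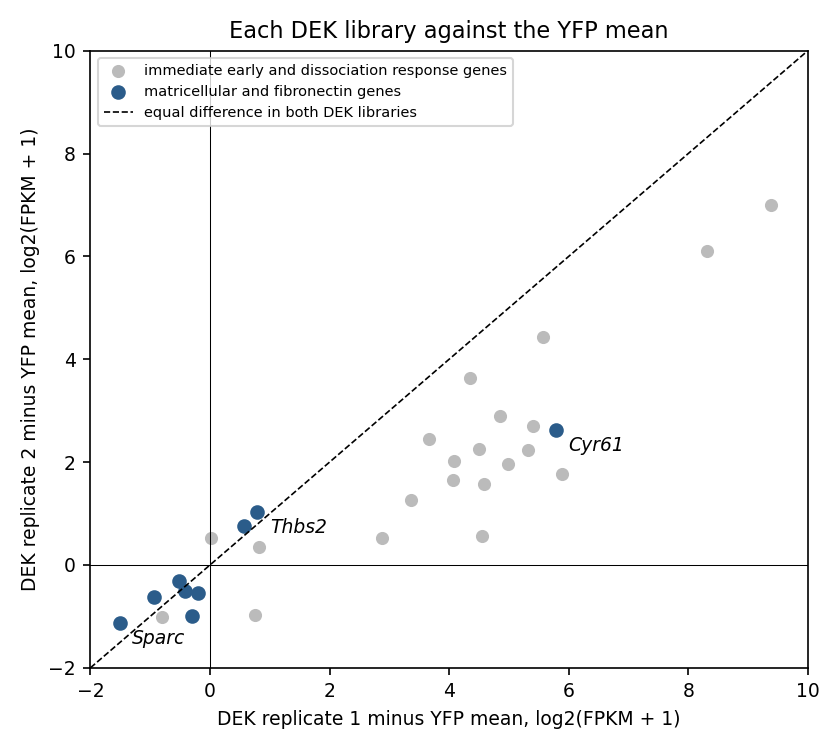
Difference of DEK replicate 1 (horizontal axis) and DEK replicate 2 (vertical axis) from the YFP mean, in log2(FPKM + 1), for the 9 genes (blue) and 21 immediate early and dissociation response genes (grey); the dashed line marks equal differences. Cyr61 lies below the line among the grey points, at 5.78 and 2.62, while Sparc (-1.51 and -1.13) and Thbs2 (0.79 and 1.04) lie near it.

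Tenascin-C, periostin and Tgfbi are known as TGF-beta-responsive matrix proteins, and periostin and Tgfbi share fasciclin domains. All 3 were scarce, and their DEK values were below their YFP values without passing the test. Tnc, an anti-adhesive hexamer, was at 2.33 and 2.98 FPKM in YFP and 0.902 and 1.35 FPKM in DEK (log2 fold change -0.78, 95% interval -1.35 to -0.22, limma adjusted p = 0.0913). It reached the filter in 3 of 4 libraries, and its log2 fold change was -1.18 with an added value of 0.1 and -0.32 with an added value of 5. Postn, which promotes collagen crosslinking, was at 1.53 and 2.36 FPKM in YFP and 1.05 and 1.36 FPKM in DEK (log2 fold change -0.41, limma adjusted p = 0.311). Tgfbi, an integrin ligand, was at 5.83 and 3.82 FPKM in YFP and 3.32 and 3.04 FPKM in DEK (log2 fold change -0.46, limma adjusted p = 0.254). Without YFP replicate 1 the log2 fold changes of Postn and Tgfbi were -0.61 and -0.21, and without YFP replicate 2 they were -0.20 and -0.71. For both genes the spread between the YFP libraries was larger than the gap between the groups. Among other tenascins Tnxb, the abundant one, was at 32.4 and 31.4 FPKM in YFP and 18.6 and 25.8 FPKM in DEK (limma adjusted p = 0.143), Tnr was listed at 0 in all libraries, and Tnn was under 1 FPKM; these were chosen after their values were seen.

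Fn1 was at 3.32 and 4.99 FPKM in YFP and 6.54 and 7.57 FPKM in DEK. Both DEK values were higher, the nearest pair by 1.31-fold, yet fibronectin mRNA was scarce in every library and far below Sparc. The log2 fold change was 0.66 (SE 0.23, 95% interval 0.10 to 1.22, limma adjusted p = 0.130), so the difference did not pass the test. Over the 18 refits with other settings or 3 libraries it ran from 0.40 to 0.90 and was called in 0, with 0.42 without YFP replicate 1.

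**Figure D4:**
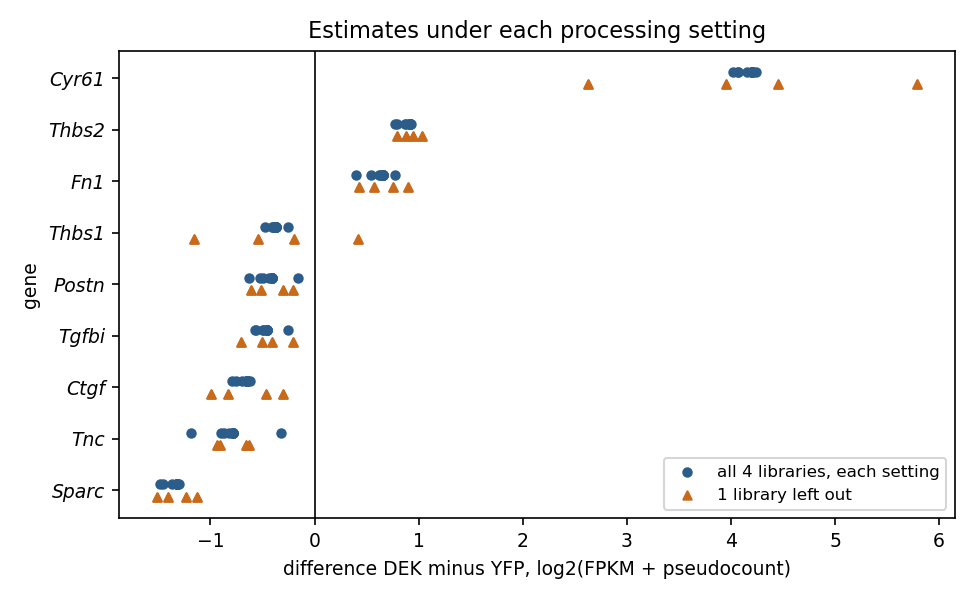
Difference between DEK and YFP (horizontal axis, log2(FPKM + pseudocount)) for each gene under each setting with all 4 libraries (blue circles) and with 1 library left out (orange triangles). Thbs1 crosses 0, the triangles of Cyr61 run from 2.62 to 5.78, and Sparc stays between -1.51 and -1.13.

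Receptors bound by these proteins came next. Of 21 listed integrins, syndecans and other receptors 15 were tested, and limma called 1 higher and 1 lower (13.3%, against 7.78% of all tested genes; median log2 fold change 0.03). Cd36, the thrombospondin receptor and a fatty acid carrier of endothelium, rose from 0.344 and 0.0156 FPKM to 18.4 and 8.24 FPKM (limma adjusted p = 0.00913), but passed the low filter only through DEK and could only be called higher. Lrp1, an endocytic receptor that clears thrombospondins and Ctgf, fell from 185 and 182 FPKM to 114 and 126 FPKM (log2 fold change -0.61, SE 0.13, limma adjusted p = 0.0477). Its relative Lrp6 was at 55.5 and 39.9 FPKM in YFP and 26.9 and 30.9 FPKM in DEK (adjusted p = 0.0872), and the syndecan Sdc1 at 5.79 and 5.06 against 6.69 and 9.71 FPKM (adjusted p = 0.206). The fibronectin receptor chains, chosen after their values were seen, stood at 251, 212, 249 and 279 FPKM for Itgb1 and at 4.68, 3.76, 3.40 and 3.78 FPKM for Itga5, in the order YFP replicates 1 and 2 and DEK replicates 1 and 2. The groups overlapped for both chains.

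Next were regulators known to act on these genes. In TGF-beta pathway genes limma called 0 higher and 1 lower of 17 tested, and 5 higher and 4 lower had an unadjusted p under 0.05. These are 5.88% called and 52.9% at an unadjusted p under 0.05, against 7.78% and 29.1% of all tested genes. The median log2 fold change was 0.18. The inhibitory Smad7, itself a TGF-beta target, fell from 10.6 and 9.93 FPKM to 4.46 and 5.44 FPKM (log2 fold change -0.93, SE 0.19, limma adjusted p = 0.0409). The common mediator Smad4 was at 31.4 and 28.2 FPKM in YFP and 17.7 and 19.5 FPKM in DEK (adjusted p = 0.0566), and the repressor Skil was at 30.6 and 14.9 against 57.8 and 52.4 FPKM (adjusted p = 0.0611). Its relative Ski was at 27.9 and 26.6 against 17.4 and 19.2 FPKM (adjusted p = 0.0774).

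In Hippo, Yap and Tead genes limma called 1 higher and 0 lower of 24 tested. The unadjusted p was under 0.05 for 3 higher and 4 lower genes. These shares, 4.17% and 29.2%, lay near or below those of all tested genes. The one that rose was Ankrd1, which like Cyr61 and Ctgf is used as a Yap readout, from 19.3 and 14.0 FPKM to 41.7 and 47.0 FPKM (log2 fold change 1.37, SE 0.19, limma adjusted p = 0.0182). Cyr61, Ankrd1 and Ctgf thus differed, with Ankrd1 called higher, Cyr61 above YFP but not called, and Ctgf below YFP but not called. Yap1 was at 23.5 and 24.8 FPKM in YFP and 15.6 and 17.3 FPKM in DEK (adjusted p = 0.0870), and the Hippo scaffold Sav1 at 11.1 and 9.08 against 4.72 and 5.84 FPKM (adjusted p = 0.0636). The coagulation gene F3 was at 0.299 and 0 against 1.41 and 1.25 FPKM (adjusted p = 0.0566). F3, 1 of the 3 higher at an unadjusted p under 0.05, passed the low filter only through DEK and could only come out higher.

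Genes of serum response factor and the actin cytoskeleton were higher where they were called. Limma called 3 of 20 higher and 0 lower, while 10 higher and 2 lower had an unadjusted p under 0.05. These are 15% called and 60% at an unadjusted p under 0.05, against 7.78% and 29.1% of all tested genes. The median log2 fold change was 0.52. Of the 20 genes, 2 passed the low filter only through DEK and could only come out higher, and neither was called. Cytoplasmic actin Actg1 rose from 35.5 and 33.5 FPKM to 77.3 and 68.7 FPKM (log2 fold change 1.06, SE 0.14, limma adjusted p = 0.0159). The myosin light chain Myl9 rose from 2.12 and 1.77 FPKM to 6.66 and 8.23 FPKM (adjusted p = 0.0167) and the LIM protein gene Fhl1 from 170 and 148 FPKM to 263 and 248 FPKM (adjusted p = 0.0425). Actb was at 443 and 458 FPKM in YFP and 676 and 869 FPKM in DEK (adjusted p = 0.0523).

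Among other matricellular genes limma called 4 higher and 3 lower of 17 tested, with 24 listed, and the median log2 fold change was 0.19. These are 41.2% called and 76.5% at an unadjusted p under 0.05, against 7.78% and 29.1% of all tested genes. Smoc2, Thbs4, Spock1, Comp and Smoc1 are described above, and the remaining call outside the rule was Efemp1, a fibulin (log2 fold change 1.46). Smoc2, Comp and Efemp1 passed the filter only through DEK, and of the 14 other tested genes 1 was called higher and 3 lower. The 1 called higher, Thbs4, reached 1 FPKM in only 1 YFP library, so it too needed DEK to pass the filter. The fourth by p, Fbln2, a fibulin of basement membranes, fell from 52.2 and 57.3 FPKM to 18.7 and 24.1 FPKM (log2 fold change -1.32, SE 0.17, limma adjusted p = 0.0150). Matrix partners and crosslinking enzymes were called 3 higher and 3 lower of 20 tested, or 30% against 7.78% of all tested genes (median log2 fold change -0.19). Of these Loxl1, a collagen and elastin crosslinker, rose by 0.69 and the collagen gene Col5a2 fell by 0.70 on the log2 scale; both were chosen after their values were seen. The fibrillar collagen genes Col1a1 and Col3a1 fell, from 146 and 90.1 FPKM to 13.3 and 36.1 FPKM and from 602 and 459 FPKM to 206 and 267 FPKM (limma adjusted p = 0.0401 and 0.0308). The small proteoglycans Dcn and Fmod rose, from 13.9 and 12.6 FPKM to 58.3 and 65.8 FPKM and from 1.86 and 0.825 FPKM to 17.6 and 20.8 FPKM (limma adjusted p = 0.00353 and 0.00478). Fmod reached 1 FPKM in only 1 YFP library and needed DEK to pass the filter. Sparc, which binds fibrillar collagens, Col1a1 and Col3a1 were thus lower in the same libraries in which Dcn and Fmod were higher. These 4 partner genes had the smallest p of their list, and others, chosen after their values were seen, differed. The small proteoglycan Bgn was lower in DEK (115 and 116 against 66.6 and 85.0 FPKM) and Lum was higher, neither called. For the collagen genes Col1a2 and Col5a1 the groups overlapped.

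**Figure D5:**
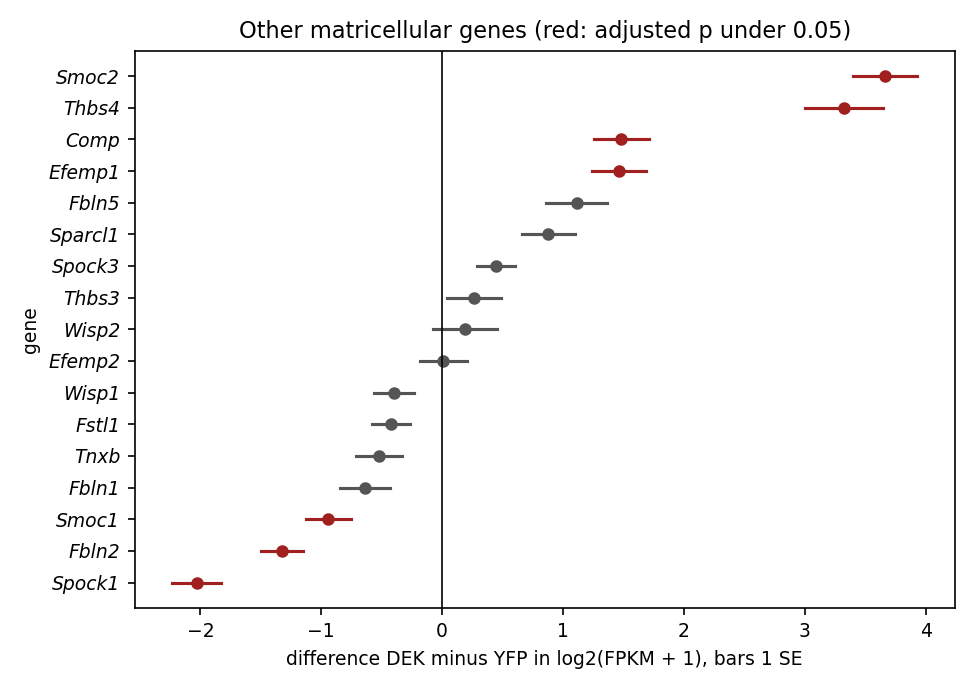
Difference between DEK and YFP (horizontal axis, log2(FPKM + 1), bars 1 SE) for the 17 tested matricellular genes outside the 9; red marks an adjusted p under 0.05. Smoc2 and Thbs4 lie highest and Spock1 lowest.

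Markers of other cells of muscle moved with the groups, and several of those cells are known to make matricellular proteins. Endothelial cells, a known source of Sparc and Thbs1, had 12 tested markers. Of these 10 were under 1 FPKM in both YFP libraries and passed the low filter only through DEK, so they could only be called higher, as all 10 were. Of the other 2, limma called Aqp1 higher and did not call Tek. Among the 12 markers 91.7% were called, against 7.78% of all tested genes. The 12 markers summed to 59.9 FPKM in each YFP library and to 263 and 200 FPKM in DEK. Most of the YFP sum was Tek (55.9 and 56.7 FPKM), and 3 of the 12 were listed at 0 in YFP replicate 1, 6 in YFP replicate 2 and 0 in DEK. Aqp1 went from 1.25 and 1.37 FPKM to 54.8 and 37.0 FPKM.

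For fibro-adipogenic progenitors, fibroblast-like cells known to make Fn1, Postn and Thbs2, limma called 3 markers higher (Dcn, Dpt and Ly6a) and 1, Col3a1, lower of the 6 tested besides Mfap5 and Pi16. That pair passed the filter only through DEK, so their higher calls were set by it. Among the 8 tested progenitor markers 75% were called, against 7.78% of all tested genes. The 9 markers summed to 1033 and 842 FPKM in YFP and 971 and 1070 FPKM in DEK, most of it Col3a1 and Dpt, and 2 were listed at 0 in YFP replicate 2 and 0 in the other libraries. Dpt was at 412 and 363 FPKM in YFP and 675 and 697 FPKM in DEK. Their defining receptor Pdgfra was at 0.814 and 2.46 FPKM in YFP and 2.09 and 5.27 FPKM in DEK. Of 8 tested macrophage markers, Csf1r, C1qa, C1qb and C1qc passed the filter only through DEK, which fixed the direction of their calls. Among the other 4 limma called 1, Cd74, higher and 0 lower. Cd74 and Lyz2 each reached 1 FPKM in only 1 YFP library, so they too needed DEK to pass the filter. Of the 8 tested macrophage markers 62.5% were called, against 7.78% of all tested genes. The list summed to 4.38 and 28.5 FPKM in YFP and 204 and 199 FPKM in DEK. Of 10 markers present, 4 and 6 were listed at 0 in the YFP libraries and 0 in DEK; Cd74 was at 0.701 and 8.87 against 106 and 76.5 FPKM, and Lyz2 at 0.200 and 15.2 against 73.4 and 100.1 FPKM. Of 8 pericyte and smooth muscle markers limma called 2 higher (Rgs5, and Myh11, which passed the filter only through DEK) and 0 lower. This is 25% called, against 7.78% of all tested genes. Acta2 (193 and 166 against 74.2 and 111 FPKM) and Kcnj8 were lower at an unadjusted p under 0.05 without being called. The list summed to 638 and 673 FPKM in YFP and 491 and 724 FPKM in DEK, most of it Notch3 and Acta2. Erythroid markers were called higher in 1 of 4 tested (25%, against 7.78% of all tested genes). It was Hba-a1, which passed the filter only through DEK. The erythroid list summed to 7.71 and 0.299 FPKM in YFP and 24.9 and 347 FPKM in DEK. Platelet markers, of interest because platelets store thrombospondin, summed to at most 2.81 FPKM in every library, with Ppbp and Treml1 at 0 in 3 of 4 libraries, and 0 of 1 tested was called. Mature myofibre markers had 0 of 2 tested called (1 higher and 1 lower had an unadjusted p under 0.05) and summed to 52.2 and 43.6 against 48.6 and 19.2 FPKM. Satellite cell markers had 1 of 9 called higher, Chrdl2, and 0 lower (11.1%, against 7.78% of all tested genes). The part of other cells in the Sparc, Thbs2, Cyr61 and Fn1 values was not tested.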

How the data were processed

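One table of the authors held 1 value per gene symbol for each of 4 libraries. Per the submitters' processing notes the deposited values were made on build mm9 using StringTie 1.3.3 after STAR 2.5.3a, and R 3.4.1; annotation, filters and strand handling are not given in the sources used here. No source used here states the unit. In this re-analysis the deposited values were taken to be FPKM, normalized before deposit, because they are not whole and their column totals differ, and 0 value columns were left out.

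Here limma 3.58.1 (R 4.3.3) was run on log2(FPKM + 1), with a variance trend and no covariate, two-sided, and Benjamini-Hochberg adjustment over the genes that reached 1 FPKM in 2 or more libraries. Fold changes of low genes are understated on that scale. The fit was tested on simulated data, where it recovered nearly all changed genes but made more false calls than the nominal share, so calls close to the threshold are less certain than their adjusted p states. The simulated shift was larger than the log2 fold change of every member but Cyr61. That recovery therefore does not show that differences as small as those of the other members would be found. Alternatives were each library left out (a lone library was taken to vary like the group that kept both), a pseudocount of 0.1 or 5, replicate number as blocking factor, other low filters, TMM factors (unweighted, trims of 30 and 5%), quantile normalization, removal of Rn45s, no trend, robust estimation and an adjusted p under 0.1.

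Named genes were the 9 members, Dek, up to 4 tested genes with the smallest p in each pathway list, and the genes with the highest mean in each marker list; any gene outside this rule is said to have been picked with its values in view, apart from marker genes given to check cell types. The members and lists were chosen with earlier results of these data known. Protein sequences were not used here. One marker list is not reported here.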

Additional observations from a re-analysis of the deposited data

How the results depend on the processing

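Depth is unknown, so no detection limit can be given, and 5 of the 9 genes lay under 10 FPKM, where the added 1 compresses differences. With all 4 libraries, the call of Sparc and that of Thbs2 were lost in 1 setting, no low filter (limma adjusted p = 0.0650 and 0.0633). With no low filter limma called 0 members higher and 0 lower, and 293 of 18329 genes in all, against 948 of 12179. A 5 FPKM filter, at which only 5 of the 9 genes were tested, gave 2 members higher and 771 of 8877 genes in all. The replicate block gave 2 members higher and 618 of 12179 genes in all. In both settings the added member was Cyr61 (limma adjusted p = 0.0433 and 0.0283). At an adjusted p under 0.1 there were 2 members higher, 2 lower and 2096 genes in all, the added members being Cyr61 and Tnc. Leaving out 1 library gave 0 to 2 members higher, 0 to 1 lower and 0 to 780 genes in all; the lowest total was without DEK replicate 1 on the genes tested with all 4 libraries, where 2215 genes had an unadjusted p under 0.05 and where the low filter on the 3 remaining libraries gave 302. The log2 fold change of Thbs1 ran from -1.15 without YFP replicate 2 to 0.42 without YFP replicate 1, the only change of direction among the 9 genes in any setting run. The cause of these changes was not tested. The labels do not say what a replicate number shares, and the deviations of YFP and DEK replicate 1 from their group means had a correlation of 0.0635 across 12179 genes, so the numbers were not treated as pairs.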

Other observations

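Several genes that work beside the 9 were more abundant than most of them in every library; they were chosen after their values were seen. Ltbp4, which holds latent TGF-beta in the matrix, was at 2823 and 3052 FPKM in YFP and 2435 and 3346 FPKM in DEK (log2 fold change -0.04, SE 0.22, limma adjusted p = 0.920). Transforming growth factor genes themselves were led by Tgfb2 (49.5 and 46.0 against 36.7 and 33.5 FPKM, limma adjusted p = 0.112) and Tgfb3 (38.1 and 34.3 against 38.3 and 44.9 FPKM), while Tgfb1 stayed under 1 FPKM. Fstl1, a secreted relative of Sparc, was at 354 and 311 FPKM in YFP and 227 and 270 FPKM in DEK, with no overlap between groups (limma adjusted p = 0.144). The collagen chaperone Serpinh1 was at 420 and 388 against 412 and 413 FPKM.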
